A study of Mus musculus with 24 samples.

Results

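Lysosomal hydrolases, lysosomal membrane proteins and subunits of the vacuolar proton pump (V-ATPase) were followed across cultured mouse pancreatic ductal adenocarcinoma (PDAC) cells that differ in p53, a transcription factor whose gene is Trp53. A list of 47 gene symbols was looked up in the symbol column of each of the 3 count tables, and all 47 were found in each table of 55401 genes. They form 5 classes: 10 proteases and their partners, 14 glycosidases and sulfatases, 8 proteins of lipid handling, 8 membrane proteins and sorting receptors, and 7 proton pump genes. The lookup used symbols and no measured value, although the list was drawn up with earlier results of these data known.

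The 24 poly(A) RNA libraries fall into 11 groups of 3 separately counted sets. KPsh cells carry a doxycycline-inducible short hairpin against Trp53. They were kept off doxycycline, which restores p53, or on doxycycline at 1 µg/ml, which silences it, for 10 days (n = 3 each). A guide against Pcyt2 was also introduced into KPsh cells (sgPcyt2). These cells, with or without a Pcyt2 cDNA that the guide does not cut, were kept off or on doxycycline for 6 days (n = 2 in each of 4 groups), so all 4 of these groups carry the guide. Pcyt2 encodes an enzyme of phosphatidylethanolamine synthesis. KPnull cells lack p53 and carried a doxycycline-inducible construct for p53 mutant in the first transactivation domain (TAD1m), in the second (TAD2m) or in both (TAD12m), for wild-type p53 (p53WT), or an empty vector, with 48 hours of doxycycline per the growth protocol (n = 2 each). The series text speaks of KPnull cells both with and without doxycycline, and the labels of single libraries do not say which. Doxycycline itself changes together with p53 in KPsh and Pcyt2-edited cells, and is constant in KPnull cells if the growth protocol holds. The labels name no separate cultures, clones or passages, so p-values reflect library-to-library spread that may be only technical.

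KPsh libraries held 9393967 to 12983421 counts, KPnull libraries 13657592 to 19431250, and those of Pcyt2-edited cells 13801515 to 17127761. Trp53 followed the labels. It measured 252 to 263 CPM off and 20.3 to 21.8 CPM on doxycycline in KPsh cells, 525 to 686 CPM with any p53 form and 4.54 and 6.13 CPM with vector in KPnull cells. Off doxycycline it reached 41.7 and 42.1 CPM in sgPcyt2 cells but 86.8 and 97.2 CPM with the Pcyt2 cDNA, against 19.2 to 22.7 CPM on doxycycline in both. Mitochondrial genes took 3.31% to 3.51% of counts off and 1.86% to 2.00% on doxycycline in the Pcyt2 set, and 3.01% to 3.09% with p53WT or TAD2m against 2.25% and 2.36% with vector. Keratin genes Krt8 and Krt18 exceeded 1340 CPM in every library, whereas Epcam stayed at or below 1.38 CPM. Of 9 immune markers, 6 stayed below 1 CPM in every library of each set, among them Ptprc, Itgam and Lyz2, and Adgre1 was at 0 throughout. The summed immune markers, mostly Cd14, Mrc1 and Csf1r, were 92.6 to 102 CPM off and 69.0 to 76.5 CPM on doxycycline in KPsh cells, and 166 to 167 CPM with p53WT and 117 CPM with vector. The summed epithelial markers moved too, at 12300 to 13000 CPM off and 6790 to 7080 CPM on doxycycline in KPsh cells and 7850 to 8380 CPM with p53WT and 5480 to 5890 CPM with vector. Krt7 was at 0.190 to 2.40 CPM in the Pcyt2 set, against at least 122 CPM in the others. The part of mitochondrial, immune and epithelial levels in the member results was not tested. In bulk RNA, a different share of expressing cells and a different amount of RNA per cell cannot be told apart.

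Lysosomes break down proteins, glycans and lipids with acid hydrolases, which work because the V-ATPase pumps protons into the organelle. Most hydrolases travel there bound to mannose 6-phosphate receptors, and a coat of glycosylated membrane proteins such as Lamp1 and Lamp2 lines the limiting membrane. Many of these genes share a palindromic E-box in their promoters, described in human cells as the element bound by the MiT/TFE factor TFEB. Pancreatic cancer cells are known for high lysosomal activity, which recycles material taken up from outside or delivered by autophagy.

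Promoter windows from 250 bases before to 50 bases after an annotated start (RefSeq, GRCm38.p6, the assembly also called mm10) were at hand for 39 of the 47 members. The motif CACGTG, which reads the same on both strands, was present in 17 of these 39 genes (43.6%), against 8.09% of 27025 genes with such windows. The longer palindrome TCACGTGA, which contains CACGTG, was present in 8 of the 39 genes (20.5%), against 1.12% of all genes. A still longer palindrome, with a further base on each side of it, was in only 2 of the 39 genes (5.13%). Those 2 were membrane proteins, and 0.37% of all genes held it. All genes with windows served as background, whatever their expression or base composition, and the part of these in the differences was not tested. By class, CACGTG was found in 5 of 8 proteases, 6 of 13 glycosidases and sulfatases, 4 of 7 membrane proteins and 2 of 5 pump genes, and no window of the 6 genes of lipid handling held it. A pair of p53 consensus half-sites, adjacent or separated by a short spacer, was in none of the 39 genes and in 0.0740% of all genes. Such matches describe the letters of the windows and are not binding sites. 6 windows are printed in the direction of transcription with CACGTG in capitals. They are those of Ctsd and Atp6v0d1, which rose in every comparison with intact or TAD2-mutant p53, of Ctsa, of Lamp1 with the most matches, of the calcium channel gene Mcoln1, and of Ctsc, which fell. They lie at chr7:142387778-142388077 (minus strand, Ctsd), chr2:164833523-164833822 (plus, the second Ctsa start), chr8:13158911-13159210 (plus, Lamp1), chr8:3500269-3500568 (plus, Mcoln1), chr8:105566015-105566314 (minus, Atp6v0d1) and chr7:88277835-88278134 (plus, Ctsc).
Ctsd: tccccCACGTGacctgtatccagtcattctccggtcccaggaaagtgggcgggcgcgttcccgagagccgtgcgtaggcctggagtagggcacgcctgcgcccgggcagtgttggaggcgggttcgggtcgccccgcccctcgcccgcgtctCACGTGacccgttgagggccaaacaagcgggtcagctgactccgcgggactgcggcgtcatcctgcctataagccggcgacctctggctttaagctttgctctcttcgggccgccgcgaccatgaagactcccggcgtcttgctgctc
Ctsa: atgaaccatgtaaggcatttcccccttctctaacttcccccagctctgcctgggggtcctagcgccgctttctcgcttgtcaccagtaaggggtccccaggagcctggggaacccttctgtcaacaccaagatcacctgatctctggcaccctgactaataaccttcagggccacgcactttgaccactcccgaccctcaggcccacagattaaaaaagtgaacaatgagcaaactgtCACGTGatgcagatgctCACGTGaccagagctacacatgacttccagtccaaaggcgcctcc
Lamp1: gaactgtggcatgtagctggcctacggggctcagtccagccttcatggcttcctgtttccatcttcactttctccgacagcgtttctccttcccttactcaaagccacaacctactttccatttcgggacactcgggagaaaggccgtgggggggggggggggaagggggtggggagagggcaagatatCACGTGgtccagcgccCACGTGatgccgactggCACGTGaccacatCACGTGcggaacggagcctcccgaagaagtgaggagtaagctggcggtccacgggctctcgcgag
Mcoln1: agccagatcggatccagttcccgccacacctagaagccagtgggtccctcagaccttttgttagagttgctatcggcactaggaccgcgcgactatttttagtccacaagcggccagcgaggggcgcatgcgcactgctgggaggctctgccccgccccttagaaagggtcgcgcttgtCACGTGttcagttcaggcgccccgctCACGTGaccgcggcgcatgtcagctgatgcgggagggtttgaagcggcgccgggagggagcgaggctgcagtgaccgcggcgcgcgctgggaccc
Atp6v0d1: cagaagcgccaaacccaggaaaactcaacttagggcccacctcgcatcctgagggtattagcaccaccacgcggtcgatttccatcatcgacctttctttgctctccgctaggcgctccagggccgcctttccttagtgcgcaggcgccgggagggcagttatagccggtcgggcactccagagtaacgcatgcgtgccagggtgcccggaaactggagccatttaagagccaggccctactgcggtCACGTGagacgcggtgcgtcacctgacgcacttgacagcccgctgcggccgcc
Ctsc: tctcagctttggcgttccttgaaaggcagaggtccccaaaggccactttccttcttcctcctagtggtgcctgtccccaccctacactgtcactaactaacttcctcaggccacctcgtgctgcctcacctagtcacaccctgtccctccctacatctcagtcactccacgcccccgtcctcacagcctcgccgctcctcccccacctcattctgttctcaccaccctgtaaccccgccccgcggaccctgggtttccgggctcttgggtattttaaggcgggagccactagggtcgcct
Lamp1 held 4 copies, the first 61 bases before its start, Ctsd, Ctsa and Mcoln1 held 2 each, Atp6v0d1 held 1 and Ctsc none. The windows of Tpp1, Man2b1, Hexa, Psap, Grn, Npc2 and Atp6v0a1 held none either, although these genes rose in KPsh cells off doxycycline and with p53WT, so the printed set is no comparison of genes that rose with genes that fell.

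Levels per length, as RPKM (counts scaled by exon length and library size), spanned a wide range within each cell system. With p53 restored in KPsh cells, Ctsd (760.1 RPKM), Ctsl (470.4), Cd63 (423), Lamp1 (360.0) and Psap (305) stood highest on average, and Idua (1.45) and Ctsf (2.16) lowest. With p53 silenced, the first 3 were Cd63 (267 RPKM), Lamp1 (236) and Ctsd (143). In KPnull cells Ctsd and Lamp1 stood side by side with p53WT (629 and 607 RPKM), while with vector Ctsd (172) stood below Lamp1 (399.6). Igf2r and Ctsh were among the members whose levels lay apart between cell systems. Igf2r, the large mannose 6-phosphate receptor, was at 0.435 to 0.979 RPKM in KPnull libraries, 6.76 to 8.30 in KPsh and 4.87 to 15.8 in the Pcyt2 set. Ctsh, an aminopeptidase of the cathepsin family, was at 21.9 to 47.8 RPKM in KPnull and 4.74 to 5.97 in KPsh libraries and at most 0.0962 RPKM in the Pcyt2 set, where it failed the filter on low counts and was not tested. The tables were counted separately and these cross-set levels carry no test. Ctsl in the KPnull table and Cd63 in the Pcyt2 table were counted on another transcript than elsewhere (6151 against 1956 bases and 2893 against 1048 bases), so their levels per length are not set across tables.

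The level of the members described below only by their changes is given here as the mean RPKM of 3 KPsh libraries off and of 3 on doxycycline. The means off and on it were Arsb 9.99 and 10.2, Ctsb 97.9 and 55.4, Ctsz 76.6 and 59.9, Glb1 24.4 and 13.8, Gusb 38.6 and 26.0 RPKM, and M6pr 56.0 and 57.9, Manba 15.9 and 9.56, Ppt1 32.1 and 18.5, Sgsh 5.95 and 3.84 RPKM. Of these, the cysteine cathepsin Ctsb stood highest off doxycycline and the sulfamidase Sgsh lowest.

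Together the 47 members took 0.920% to 0.941% of counts off doxycycline in KPsh cells, against 0.456% to 0.464% on it. In the KPnull set their share was 0.736% and 0.748% with TAD1m, 0.912% and 0.917% with TAD2m, 0.567% and 0.581% with TAD12m, 0.919% and 0.925% with p53WT and 0.555% and 0.556% with vector. In the Pcyt2 set it was 0.933% and 0.938% off and 0.448% in both libraries on doxycycline in sgPcyt2 cells, and 0.971% and 0.979% off and 0.437% and 0.438% on it with the Pcyt2 cDNA. The libraries with intact or TAD2-mutant p53 thus lay between 0.912% and 0.979% in all 3 sets. Those with silenced, absent or doubly mutant p53 lay between 0.437% and 0.581%, and those with TAD1m between the 2 ranges. The sets were counted separately, so these ranges carry no test across sets, and their make-up differed. Proteases took 0.363% to 0.38% of counts off doxycycline in KPsh cells, and 0.283% and 0.285% with p53WT in KPnull cells.

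**Figure D1:**
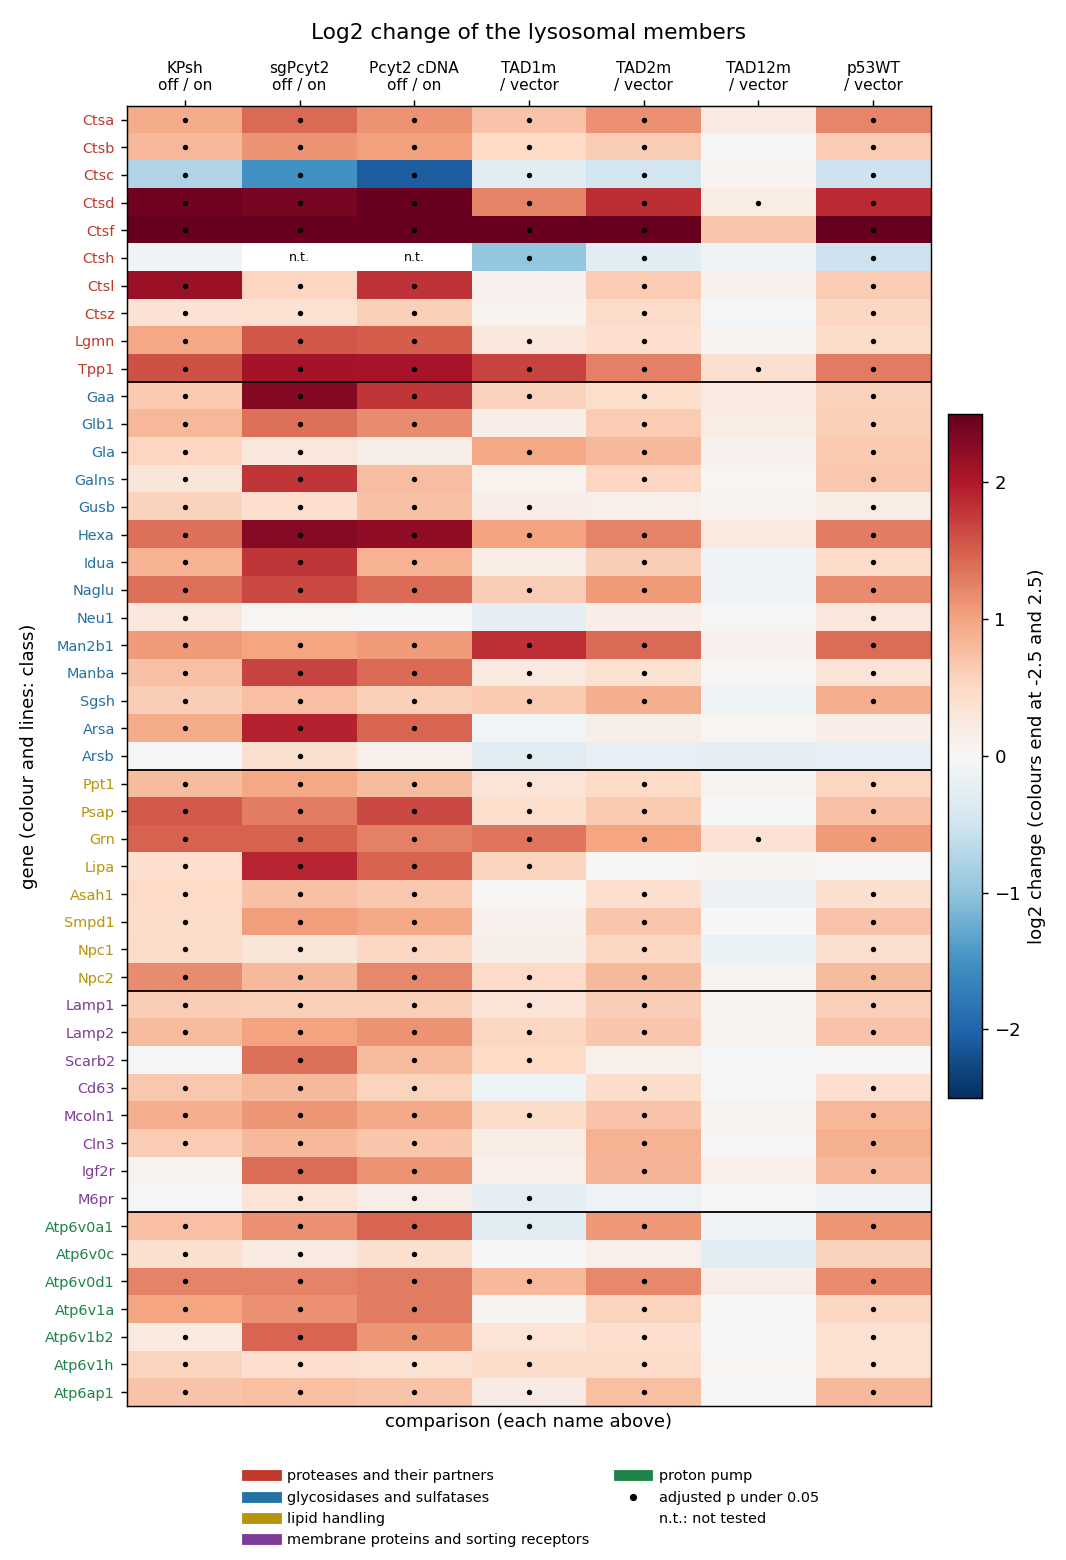
Log2 change of each of the 47 members (rows, grouped by class) in 7 comparisons (columns). Red is higher and blue lower in the first-named group, dots mark an adjusted p under 0.05, and n.t. marks Ctsh, which was not tested in the Pcyt2 set. The TAD12m column holds 3 dots, while the columns of TAD2m and p53WT hold 39 and 41.

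Members of every class were higher in KPsh cells kept off doxycycline for 10 days, where p53 and doxycycline change together. Off against on doxycycline, 41 of 47 members were higher and 1, Ctsc, was lower at an adjusted p under 0.05 (edgeR quasi-likelihood test, adjusted over 13990 genes), beside 33.1% and 31.7% of all genes tested. The median log2 change was 0.71 over the members and 0.01 over all genes. All 8 lipid handling genes and all 7 pump genes were called higher, as were 13 of 14 glycosidases and sulfatases, 8 of 10 proteases and 5 of 8 membrane proteins.

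Among the proteases, the aspartic protease Ctsd (chromosome 7, 142375911 to 142388038, minus strand, mm10) had 1567, 1559 and 1686 CPM off doxycycline, against 316, 297 and 294 CPM on it. The cysteine protease Ctsl had 916, 922 and 921 CPM off doxycycline, against 213, 202 and 201 CPM on it. Tpp1, a tripeptidyl peptidase that removes residues from the amino end, had 249.8, 241 and 237 CPM off doxycycline, against 79.5, 79.4 and 82.5 CPM on it. The log2 changes of these 3 genes were 2.41 ± 0.06, 2.16 ± 0.05 and 1.59 ± 0.06 (± SE of the fit, adjusted p at most 2.46e-16). They were named for the size of their change, so libraries that do not overlap follow from that choice. Ctsf, a rare cathepsin, had 2.93, 4.33 and 5.41 CPM off doxycycline, against 0, 0.417 and 0.302 CPM on it. Its summed counts of 141 off and 8 on doxycycline gave a ratio of 18.3 with a 95% counting interval of 9.01 to 43.1 (exact, counting error only). Ctsc, an aminodipeptidase that activates granule serine proteases in immune cells, went the other way, with 71.6, 76.5 and 72.2 CPM off doxycycline, against 127, 116 and 128 CPM on it (−0.75 ± 0.06, adjusted p = 5.58e-10). The remaining called proteases were the protective protein Ctsa (0.92 ± 0.06), Ctsb (0.82 ± 0.05), the asparaginyl endopeptidase Lgmn (0.97 ± 0.09) and Ctsz (0.36 ± 0.06), while Ctsh at −0.09 ± 0.11 did not pass (adjusted p = 0.498). Exons of Gm49369 on the same strand cover 31.5% of the counted exon bases of Ctsd, and that gene had 600.5 to 689 CPM off and 121 to 134 CPM on doxycycline, so reads of the shared stretch could count for either.

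Of the glycan-degrading enzymes, Hexa, the alpha subunit of beta-hexosaminidase, had 26.4, 27.5 and 28.2 CPM off doxycycline, against 10.2, 11.5 and 10.2 CPM on it. Naglu, which cleaves N-acetylglucosamine from heparan sulfate, had 38.0, 41.8 and 40.7 CPM off doxycycline, against 15.4, 15.7 and 15.6 CPM on it. Man2b1, the acid alpha-mannosidase, had 116, 117 and 117 CPM off doxycycline, against 55.6, 54.9 and 56.6 CPM on it. The log2 changes of these 3 were 1.37 ± 0.10, 1.37 ± 0.09 and 1.06 ± 0.06 (adjusted p at most 9.65e-11). The arylsulfatase Arsa (0.92 ± 0.10), the iduronidase Idua (0.87 ± 0.22), the beta-galactosidase Glb1 (0.82 ± 0.07), the beta-mannosidase Manba (0.73 ± 0.08), the acid alpha-glucosidase Gaa (0.66 ± 0.07), the sulfamidase Sgsh (0.62 ± 0.10), the beta-glucuronidase Gusb (0.57 ± 0.06), the alpha-galactosidase Gla (0.54 ± 0.10), the sulfatase Galns (0.29 ± 0.09) and the sialidase Neu1 (0.27 ± 0.05) rose less. Arylsulfatase B, Arsb, did not pass (−0.03 ± 0.08, adjusted p = 0.784).

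In lipid handling, Psap, the precursor of the saposins that present sphingolipids to hydrolases, had 793, 790.0 and 823 CPM off doxycycline, against 271, 280.2 and 280.5 CPM on it. Grn, the progranulin precursor, had 202, 190.3 and 209.8 CPM off doxycycline, against 75.1, 74.5 and 67.6 CPM on it. Npc2, which hands cholesterol to Npc1, had 268, 246 and 254 CPM off doxycycline, against 115, 111 and 113 CPM on it. Their log2 changes were 1.53 ± 0.05, 1.47 ± 0.06 and 1.18 ± 0.06 (adjusted p at most 4.6e-14). The palmitoyl thioesterase Ppt1 (0.80 ± 0.07), the acid ceramidase Asah1 (0.50 ± 0.06), the cholesterol exporter Npc1 (0.48 ± 0.08), the acid sphingomyelinase Smpd1 (0.47 ± 0.08) and the acid lipase Lipa (0.43 ± 0.07) also passed.

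Membrane proteins changed less evenly. Mcoln1, a calcium-permeable channel, had 38.1, 43.6 and 46.9 CPM off doxycycline, against 23.3, 23.7 and 21.6 CPM on it. Lamp2 had 145, 152 and 131 CPM off doxycycline, against 79.7, 80.4 and 88.2 CPM on it. The tetraspanin Cd63 had 467, 420.2 and 443 CPM off doxycycline, against 278, 280.3 and 280.3 CPM on it. These 3 rose by 0.91 ± 0.09, 0.78 ± 0.07 and 0.67 ± 0.05 on the log2 scale (adjusted p at most 1.07e-08), with the membrane protein Cln3 (0.63 ± 0.09) and Lamp1 (0.61 ± 0.05) close by. Igf2r (0.10 ± 0.07), the small mannose 6-phosphate receptor M6pr (−0.05 ± 0.06) and the lysosomal membrane protein Scarb2 (−0.04 ± 0.06), did not pass.

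The proton pump has a membrane sector (V0) that conducts protons and a cytosolic sector (V1) that hydrolyses ATP. Atp6v0d1, which links the sectors, had 106, 94.5 and 107 CPM off doxycycline, against 44.1, 42.7 and 43.4 CPM on it. Atp6v1a, the catalytic subunit, had 223, 216 and 204 CPM off doxycycline, against 101, 108 and 114 CPM on it. Atp6v0a1, an isoform of the membrane subunit a, had 221, 236 and 248 CPM off doxycycline, against 135, 143 and 138 CPM on it. They rose by 1.24 ± 0.07, 1.00 ± 0.06 and 0.76 ± 0.06 (adjusted p at most 1.31e-10). The accessory protein Atp6ap1 (0.71 ± 0.06), the regulatory subunit Atp6v1h (0.56 ± 0.06), the proteolipid Atp6v0c (0.40 ± 0.07) and Atp6v1b2 (0.23 ± 0.06) followed, so that the subunits rose by unequal amounts.

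Wild-type p53 for 48 hours in KPnull cells raised the same classes. Against vector, 39 of 47 members were higher and 2, Ctsc and Ctsh, were lower, beside 25.5% and 25.1% of the 15075 genes tested. The median log2 change was 0.60 over the members and −0.01 over all genes. KPsh and KPnull comparisons share no library. In both, 38 of the 47 members (80.9%) were called higher, 1 (Ctsc, 2.13%) was called lower and none was called in opposite directions. Of all 13502 genes tested in both, 21% were called higher in both, 20% lower in both and 2.06% in opposite directions. Across the 47 genes the log2 changes of both systems had a Pearson r of 0.871, or 0.757 over 46 genes without Ctsf, given as a description since genes are not replicates.

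**Figure D2:**
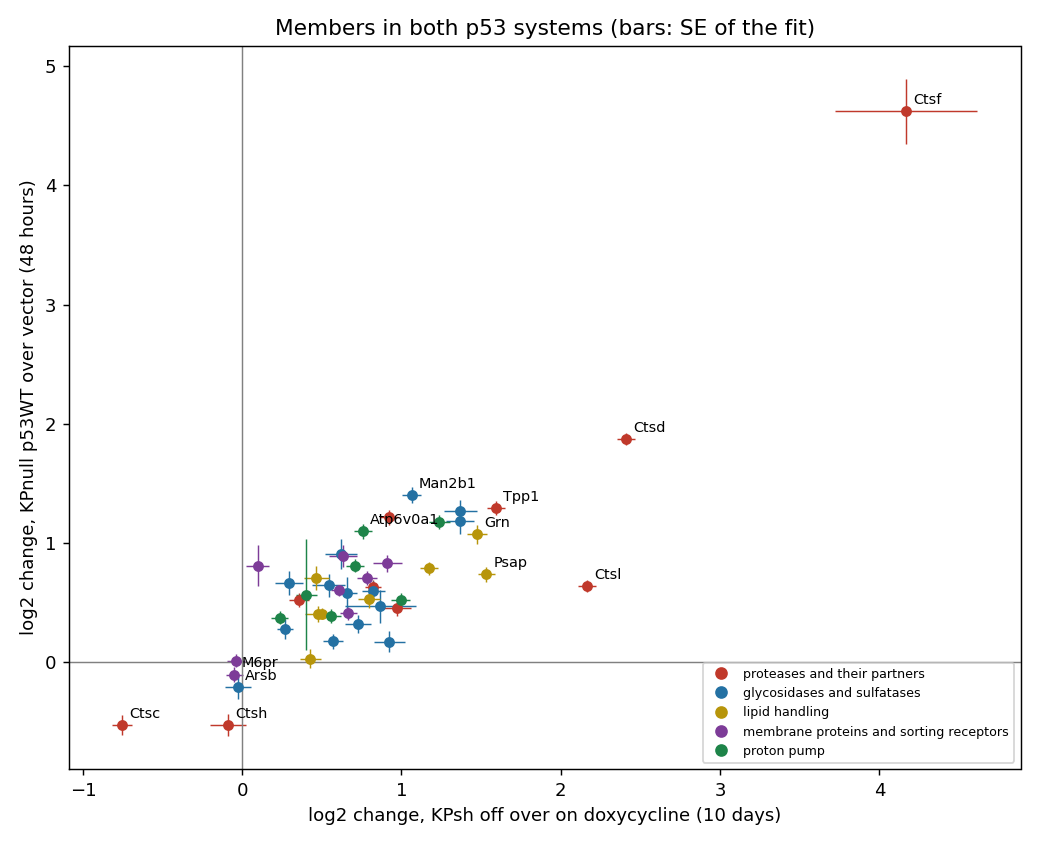
Log2 change of each member in KPsh cells off over on doxycycline (x) and in KPnull cells with p53WT over vector (y), coloured by class, with bars of 1 SE. Most genes lie in the upper right part, and Ctsc lies below 0 on both axes. Ctsl changed by 2.16 ± 0.05 in KPsh and 0.64 ± 0.05 in KPnull cells, but was counted on different transcripts in these sets.

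The protease Ctsd had 845 and 858 CPM with TAD1m, 1306 and 1304 with TAD2m, 407 and 421 with TAD12m, 1321 and 1332 with p53WT and 368 and 358 with vector. Tpp1 had 241 and 256 CPM with TAD1m, 187 and 185 with TAD2m, 103 and 99.6 with TAD12m, 184 and 194 with p53WT and 76.0 and 78.5 with vector. Ctsf (chromosome 19, 4855130 to 4860918, plus strand) had 14.4 and 14.1 CPM with TAD1m, 9.36 and 9.73 with TAD2m, 0.685 and 0.436 with TAD12m, 9.58 and 7.65 with p53WT and 0.459 and 0.197 with vector. With p53WT over vector, the log2 changes of these 3 were 1.87 ± 0.05, 1.29 ± 0.06 and 4.62 ± 0.27 (adjusted p at most 7.51e-10). Ctsf rests on 12 counts over both vector libraries. Ctsc had 42.5 and 44.0 CPM with TAD1m, 35.7 and 40.1 with TAD2m, 55.5 and 53.6 with TAD12m, 36.1 and 36.4 with p53WT and 56.2 and 47.7 with vector. Ctsh had 59.6 and 63.2 CPM with TAD1m, 95.6 and 102 with TAD2m, 122 and 101 with TAD12m, 84.7 and 82.0 with p53WT and 130 and 109.6 with vector. With p53WT both fell, by 0.52 ± 0.09 and 0.53 ± 0.09 (adjusted p = 7.35e-05 and 0.000388). Ctsa, the protective protein, had 184 and 199.9 CPM with TAD1m, 265 and 248 with TAD2m, 129 and 139 with TAD12m, 273 and 268 with p53WT and 113 and 119.6 with vector. Of the other proteases, Ctsa changed by 1.22 ± 0.06, Ctsb by 0.64 ± 0.05, Ctsl by 0.64 ± 0.05, Ctsz by 0.52 ± 0.06 and Lgmn by 0.46 ± 0.06, and all 5 were called higher.

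Man2b1 had 235 and 253 CPM with TAD1m, 182 and 189.6 with TAD2m, 70.7 and 78.6 with TAD12m, 184 and 182 with p53WT and 69.4 and 69.0 with vector. Hexa had 26.5 and 25.1 CPM with TAD1m, 30.8 and 29.5 with TAD2m, 14.9 and 15.6 with TAD12m, 31.9 and 29.9 with p53WT and 13.2 and 12.4 with vector. Naglu had 17.7 and 19.3 CPM with TAD1m, 26.9 and 24.1 with TAD2m, 10.5 and 12.3 with TAD12m, 28.4 and 26.9 with p53WT and 11.1 and 13.3 with vector. These glycosidases changed most with p53WT, by 1.40 ± 0.06, 1.27 ± 0.09 and 1.19 ± 0.11. Sgsh (0.91 ± 0.12), Galns (0.67 ± 0.10), Gla (0.65 ± 0.10), Glb1 (0.60 ± 0.08), Gaa (0.58 ± 0.14), Idua (0.47 ± 0.14), Manba (0.32 ± 0.07), Neu1 (0.28 ± 0.09) and Gusb (0.18 ± 0.06) were called higher, and Arsa (0.17 ± 0.09) and Arsb (−0.21 ± 0.10) were not called. The calls of Gusb, Idua and Neu1 were lost without p53WT replicate 1 (adjusted p of 0.256, 0.0748 and 0.136) or vector replicate 1 (0.0831, 0.0579 and 0.131), that of Gusb also without vector replicate 2 (0.0629) or with only the 2 groups compared (0.0605), and that of Idua with DESeq2 (0.0745). In lipid handling, Grn had 185 and 194 CPM with TAD1m, 146 and 151 with TAD2m, 89.0 and 104 with TAD12m, 166 and 148 with p53WT and 70.3 and 79.3 with vector. Npc2 had 167 and 171 CPM with TAD1m, 208 and 215 with TAD2m, 124 and 131 with TAD12m, 209 and 209 with p53WT and 124 and 118 with vector. Psap had 555 and 555 CPM with TAD1m, 633 and 643 with TAD2m, 382 and 437 with TAD12m, 689 and 669.6 with p53WT and 397 and 417 with vector. They changed by 1.07 ± 0.08, 0.79 ± 0.06 and 0.74 ± 0.06 with p53WT, Smpd1 by 0.71 ± 0.10, Ppt1 by 0.53 ± 0.07, Asah1 by 0.41 ± 0.05 and Npc1 by 0.40 ± 0.07, all called, while Lipa at 0.03 ± 0.08 was not (adjusted p = 0.784).

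At the membrane, Cln3 had 26.2 and 29.4 CPM with TAD1m, 43.7 and 44.6 with TAD2m, 22.9 and 26.5 with TAD12m, 48.2 and 42.1 with p53WT and 24.4 and 24.3 with vector. Mcoln1 had 49.7 and 53.5 CPM with TAD1m, 60.6 and 62.7 with TAD2m, 38.3 and 41.5 with TAD12m, 68.2 and 65.3 with p53WT and 36.4 and 38.9 with vector. Igf2r had 4.45 and 5.14 CPM with TAD1m, 7.21 and 8.61 with TAD2m, 4.69 and 4.80 with TAD12m, 6.95 and 8.41 with p53WT and 3.83 and 4.996 with vector. They changed by 0.89 ± 0.09, 0.83 ± 0.07 and 0.81 ± 0.17 with p53WT, beside 0.71 ± 0.06 for Lamp2, 0.60 ± 0.05 for Lamp1 and 0.41 ± 0.05 for Cd63. Scarb2 (0.01 ± 0.06) and M6pr (−0.10 ± 0.06) were not called, as in KPsh cells. Of the pump, Atp6v0d1 had 122 and 124 CPM with TAD1m, 161 and 163 with TAD2m, 77.7 and 80.3 with TAD12m, 161 and 157 with p53WT and 71.8 and 68.5 with vector. Atp6v0a1 had 168 and 162 CPM with TAD1m, 422 and 422 with TAD2m, 178 and 192 with TAD12m, 416 and 431 with p53WT and 186 and 209.5 with vector. Atp6ap1 had 129 and 125 CPM with TAD1m, 183 and 184 with TAD2m, 111 and 110.1 with TAD12m, 194 and 189.6 with p53WT and 107 and 112 with vector. The changes with p53WT were 1.18 ± 0.06, 1.10 ± 0.06 and 0.81 ± 0.05 (adjusted p at most 3.25e-09), and Atp6v1a (0.53 ± 0.06), Atp6v1h (0.39 ± 0.06) and Atp6v1b2 (0.37 ± 0.05) also passed. Atp6v0c was uncertain in this set, where it was not called in any comparison. It had 24.5 and 24.99 CPM with TAD1m, 30.6 and 22.6 with TAD2m, 14.03 and 26.3 with TAD12m, 43.3 and 29.2 with p53WT and 16.1 and 33.9 with vector, a spread within groups as wide as between them. The pseudogene Atp6v0c-ps2, whose reads may not be separable from Atp6v0c, had 15.9 to 26.4 CPM in these libraries. In the other sets it had at most 0.685 CPM.

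**Figure D3:**
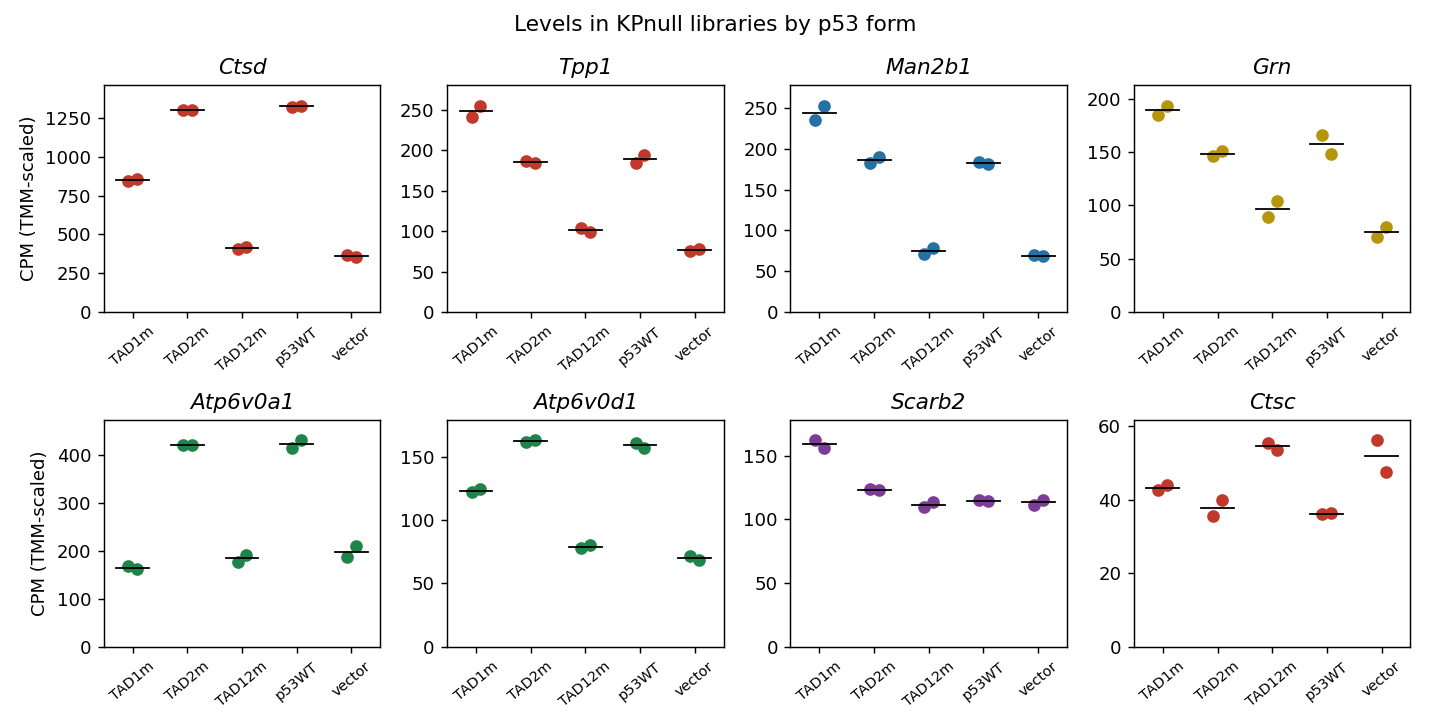
Scaled CPM of 8 members in each of the 10 KPnull libraries (points) with group means (lines), by p53 form, each axis from 0. Ctsd, Atp6v0a1 and Atp6v0d1 show TAD2m beside p53WT and TAD1m lower, whereas Tpp1, Man2b1, Grn and Scarb2 are highest with TAD1m.

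With the second transactivation domain mutated, no member was called different from wild-type p53, in a comparison with few calls over all genes. TAD2m raised 37 members against vector and lowered 2 (Ctsc and Ctsh), beside 24.9% and 24.2% of all genes, with a median log2 change of 0.61 over the members. The lower call of Ctsh was lost without TAD2m replicate 1 (adjusted p = 0.163) or vector replicate 1 (0.218). Set against p53WT directly, none of the 47 members was called in either direction by edgeR, 1 was higher and none lower at an unadjusted p under 0.05, and DESeq2 called none. Over all genes, 0.199% were called higher and 0.0862% lower in that comparison. The 95% intervals of 46 of the 47 members lay within 0.5 of 0 on the log2 scale, and the estimates of these 46 ran between −0.15 (Gaa) and 0.25 (Ctsh). Atp6v0c was the exception, at −0.45 with an interval of −1.63 to 0.74. Trp53 RNA was at 530 and 525 CPM with TAD2m and at 649 and 686 CPM with p53WT. The part of p53 amount in this comparison was not tested.

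With both domains mutated, most of the response was not detected. Trp53 RNA was at 552 and 580 CPM, and no p53 protein values were at hand. Against vector, TAD12m raised 3 of 47 members and lowered none, beside 2.00% and 1.85% of all genes. At an unadjusted p under 0.05, 7 were higher and 3 lower, and DESeq2 called 3 and none. Leaving out TAD12m replicate 2 or vector replicate 1 left only Tpp1. The 3 were Tpp1 (0.39 ± 0.06, adjusted p = 0.000774), Grn (0.37 ± 0.08, adjusted p = 0.0179) and Ctsd (0.19 ± 0.05, adjusted p = 0.0419). With only the 2 groups compared, Ctsd (adjusted p = 0.354) and Grn (0.152) did not pass, nor did Ctsd with a replicate block (0.0603), with RLE normalization (0.0561) or without vector replicate 2 (0.187). For Ctsf the summed counts of 21 with TAD12m and 12 with vector gave a ratio of 1.64 (counting interval 0.771 to 3.66). Against p53WT, 37 members were lower with TAD12m and 2 (Ctsc and Ctsh) higher, beside 25.6% and 25.5% of all genes. The lowest were Ctsf (−3.92 ± 0.24), Ctsd (−1.68 ± 0.05), Man2b1 (−1.29 ± 0.06), Naglu (−1.28 ± 0.11), Atp6v0a1 (−1.20 ± 0.06) and Hexa (−1.02 ± 0.09), followed by Ctsa (−1.01 ± 0.06), Sgsh (−1.01 ± 0.12) and Atp6v0d1 (−1.01 ± 0.06). Per class, the lowest of the other classes were Psap (−0.73 ± 0.06), Npc2 (−0.71 ± 0.06) and Smpd1 (−0.71 ± 0.10) in lipid handling, Cln3 (−0.87 ± 0.09), Mcoln1 (−0.74 ± 0.07) and Igf2r (−0.69 ± 0.17) at the membrane, and Atp6ap1 (−0.80 ± 0.05) in the pump.

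TAD1m split the members. Against vector 27 were higher and 5 lower, beside 19% and 17.5% of all genes, with a median log2 change of 0.26. The 5 lower ones were Ctsh, Atp6v0a1, Ctsc, Arsb and M6pr, and only Ctsh kept its call whichever TAD1m or vector library was left out, with 2 lower calls without TAD1m replicate 1 and 3 without any other. Against p53WT, 29 members were lower and 8 higher with TAD1m, beside 18.7% and 20.4% of all genes. Trp53 RNA had 622 and 654 CPM with TAD1m and 649 and 686 CPM with p53WT (log2 change −0.07 ± 0.06, not called). No p53 protein values were at hand, and the part of p53 amount in these differences was not tested. DESeq2 called 25 members lower and 6 higher with TAD1m than with p53WT. The comparisons with vector share the vector libraries.

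The 8 members that were higher with TAD1m than with p53WT came from 4 classes. Ctsf (ratio to vector 41.6, counting interval 23.6 to 81.1, against 24.4 and 13.7 to 47.8 with p53WT) differed by 0.72 ± 0.14 between the forms. Tpp1 differed by 0.39 ± 0.06, Man2b1 by 0.42 ± 0.06, Grn by 0.27 ± 0.08 and Ctsc by 0.26 ± 0.09. Gla had 29.9 and 31.3 CPM with TAD1m, 26.7 and 28.8 with TAD2m, 17.7 and 16.5 with TAD12m, 25.4 and 23.9 with p53WT and 16.4 and 14.99 with vector (0.31 ± 0.09, adjusted p = 0.00995). Lipa had 84.3 and 89.9 CPM with TAD1m, 59.9 and 61.5 with TAD2m, 64.5 and 58.9 with TAD12m, 60.5 and 60.4 with p53WT and 64.3 and 53.8 with vector (0.53 ± 0.08, adjusted p = 6.1e-05). Scarb2 had 162 and 156 CPM with TAD1m, 124 and 123 with TAD2m, 109.6 and 114 with TAD12m, 115 and 114 with p53WT and 111 and 116 with vector (0.47 ± 0.06, adjusted p = 3.99e-06). Lipa and Scarb2 were higher with TAD1m than with vector by 0.56 ± 0.08 and 0.49 ± 0.06 and were not called with p53WT. No pump gene was among the 8. Without p53WT replicate 2 or TAD1m replicate 2, the calls for Gla, Grn and Ctsc were lost.

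The pump gene Atp6v0a1 (chromosome 11, 101009452 to 101063719, plus strand) marked the other end. It was 0.26 ± 0.06 lower with TAD1m than with vector on the log2 scale (adjusted p = 0.00382), 1.10 ± 0.06 higher with p53WT than with vector, and differed by −1.36 ± 0.06 between the forms (adjusted p = 1.2e-10). Its call against vector was lost without TAD1m replicate 2 (adjusted p = 0.0506) or vector replicate 2 (0.0501), while that between the forms was kept whichever library was left out. Atp6ap1 followed with −0.60 ± 0.05. Atp6v1a had 236 and 231 CPM with TAD1m, 326 and 334 with TAD2m, 233 and 219.9 with TAD12m, 311 and 333 with p53WT and 230.1 and 217 with vector, a difference of −0.47 ± 0.06. For 2 other pump genes no difference between TAD1m and p53WT was called. Atp6v1h had 129 and 125 CPM with TAD1m, 126 and 131 with TAD2m, 96.8 and 95.5 with TAD12m, 122 and 120.1 with p53WT and 96.0 and 88.9 with vector. Atp6v1b2 had 162 and 164 CPM with TAD1m, 169.8 and 176 with TAD2m, 128 and 128 with TAD12m, 169.6 and 165 with p53WT and 129.8 and 128 with vector. Against vector they changed by 0.46 ± 0.06 and 0.33 ± 0.05 with TAD1m, beside 0.39 ± 0.06 and 0.37 ± 0.05 with p53WT, with 0.07 ± 0.06 and −0.04 ± 0.05 between the forms. Atp6v0d1 changed by 0.81 ± 0.06 against vector with TAD1m, beside 1.18 ± 0.06 with p53WT, and was lower with TAD1m than with p53WT (−0.37 ± 0.06, adjusted p = 5.37e-05).

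Among proteases, Ctsd (−0.64 ± 0.05), Ctsl (−0.53 ± 0.05) and Ctsa (−0.50 ± 0.06) were lower with TAD1m than with p53WT, and Ctsd and Ctsa were still above vector (1.23 ± 0.05 and 0.72 ± 0.06). Ctsl had 249.6 and 236 CPM with TAD1m, 347 and 354 with TAD2m, 245 and 240 with TAD12m, 347 and 354 with p53WT and 229.6 and 219.6 with vector, and with TAD1m it did not pass against vector (0.11 ± 0.05, adjusted p = 0.117). Of the glycosidases and sulfatases, Galns had 27.1 and 32.3 CPM with TAD1m, 42.8 and 37.6 with TAD2m, 26.0 and 30.4 with TAD12m, 45.6 and 42.4 with p53WT and 27.1 and 28.5 with vector. Neu1 had 118 and 120.2 CPM with TAD1m, 164 and 146 with TAD2m, 129 and 152 with TAD12m, 176 and 160.5 with p53WT and 131 and 147 with vector. With Naglu these 2 were the furthest below p53WT, at −0.57 ± 0.10, −0.49 ± 0.09 and −0.58 ± 0.11 for Naglu (adjusted p at most 0.000455). In lipid handling, Smpd1 had 28.5 and 25.2 CPM with TAD1m, 42.8 and 38.0 with TAD2m, 22.5 and 27.1 with TAD12m, 41.6 and 39.3 with p53WT and 24.9 and 24.7 with vector. Asah1 had 414 and 413 CPM with TAD1m, 539 and 551 with TAD2m, 374 and 358 with TAD12m, 543 and 538 with p53WT and 413 and 400.1 with vector. They were −0.59 ± 0.10 and −0.39 ± 0.05 relative to p53WT and did not pass against vector. At the membrane, Cln3 (−0.70 ± 0.09), Igf2r (−0.68 ± 0.17) and Cd63 (−0.51 ± 0.05) were furthest below p53WT. The calls of Igf2r and of Lamp2, given below, against p53WT were each lost under an alternative. Cd63 had 164 and 167 CPM with TAD1m, 237 and 250.3 with TAD2m, 176 and 183 with TAD12m, 239 and 233 with p53WT and 179 and 176 with vector. Lamp2 had 211 and 207 CPM with TAD1m, 225 and 247 with TAD2m, 159 and 152 with TAD12m, 239 and 241 with p53WT and 144.3 and 149 with vector, above vector by 0.51 ± 0.06 with TAD1m and below p53WT (−0.20 ± 0.06).

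**Figure D4:**
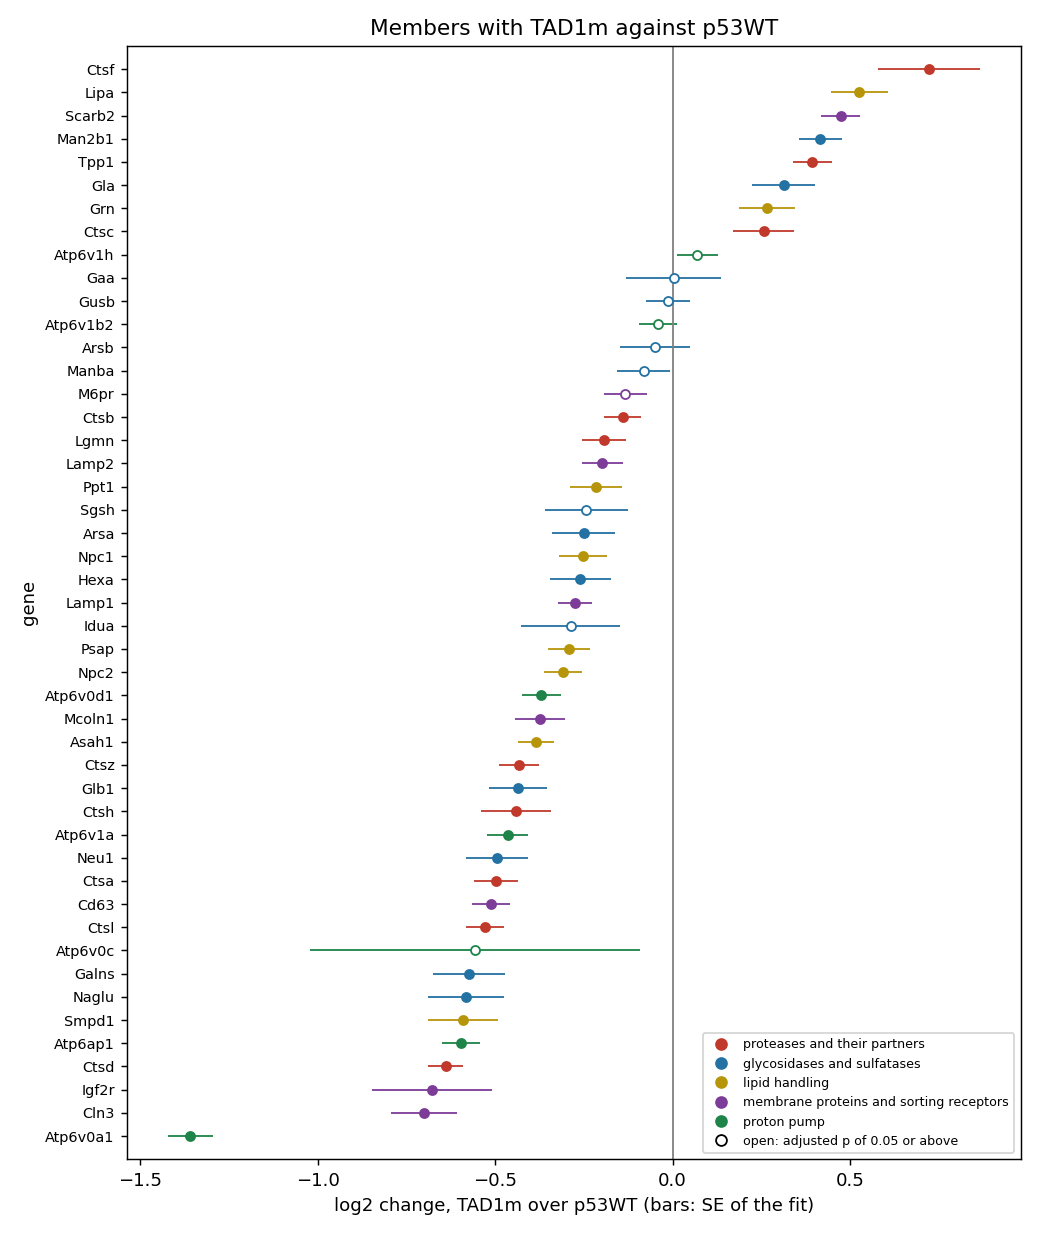
Log2 change of each member with TAD1m over p53WT, sorted and coloured by class, with bars of 1 SE. Filled points passed an adjusted p of 0.05 (8 higher, 29 lower), Ctsf, Lipa and Scarb2 stand at the upper end and Atp6v0a1 at the lower end at −1.36.

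In Pcyt2-edited KPsh cells, 6 days without doxycycline raised nearly every member whether or not Pcyt2 was supplied. Off against on doxycycline, 44 of the 46 members tested were higher and 1 lower in sgPcyt2 cells (39.2% and 37.1% of 14916 genes), and 42 were higher and 1 lower with the Pcyt2 cDNA (37.3% and 36.3%). The lower one was Ctsc in both. The median log2 change was 1.11 and 1.05 over the members and 0.02 over all genes in both. The summed immune markers were lower off doxycycline here (90.2 to 94.9 CPM off and 254 to 267 CPM on it in sgPcyt2 cells, 126 to 134 CPM off and 201 to 204 CPM on it with the cDNA). Pcyt2 itself measured 17.7 to 28.6 CPM in sgPcyt2 cells and 2193 to 2636 CPM with the cDNA.

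Ctsd had 1176 and 1223 CPM off and 230.5 and 229.8 on doxycycline in sgPcyt2 cells, and 1428 and 1442 off and 226 and 218 on it with the Pcyt2 cDNA. Tpp1 had 328 and 314 CPM off and 74.8 and 77.6 on doxycycline in sgPcyt2 cells, and 336 and 332 off and 80.9 and 80.4 on it with the Pcyt2 cDNA. Lgmn had 78.3 and 72.7 CPM off and 26.9 and 24.6 on doxycycline in sgPcyt2 cells, and 59.4 and 62.2 off and 22.5 and 20.5 on it with the Pcyt2 cDNA. All 3 proteases rose on withdrawal, Ctsd by 2.38 ± 0.04 in sgPcyt2 cells and 2.69 ± 0.04 with the cDNA, Tpp1 by 2.08 ± 0.04 in sgPcyt2 cells and 2.05 ± 0.04 with the cDNA and Lgmn by 1.55 ± 0.07 in sgPcyt2 cells and 1.51 ± 0.07 with the cDNA. Ctsf had 9.07 and 9.68 CPM off and 0.253 and 0.272 on doxycycline in sgPcyt2 cells, and 8.04 and 8.34 off and 0.147 and 0.0590 on it with the Pcyt2 cDNA. The ratio of its counts off over on doxycycline was 36.3 (counting interval 18.2 to 85.0) in sgPcyt2 cells and 84.8 (28.7 to 414) with the cDNA, the last against 3 counts in both libraries together. Ctsc had 60.9 and 62.6 CPM off and 173 and 179 on doxycycline in sgPcyt2 cells, and 26.2 and 26.2 off and 109.5 and 109 on it with the Pcyt2 cDNA, and fell by 1.51 ± 0.05 in sgPcyt2 cells and 2.06 ± 0.06 with the cDNA. Among glycosidases and sulfatases, Gaa had 181 and 178 CPM off and 36.7 and 36.6 on doxycycline in sgPcyt2 cells, and 114 and 119 off and 32.4 and 34.6 on it with the Pcyt2 cDNA. Hexa had 51.7 and 48.2 CPM off and 10.1 and 10.6 on doxycycline in sgPcyt2 cells, and 33.5 and 37.4 off and 7.79 and 7.496 on it with the Pcyt2 cDNA. Arsa had 49.7 and 44.9 CPM off and 13.5 and 11.5 on doxycycline in sgPcyt2 cells, and 34.1 and 36.4 off and 13.7 and 12.3 on it with the Pcyt2 cDNA. Gaa rose by 2.29 ± 0.06 in sgPcyt2 cells and 1.79 ± 0.06 with the cDNA, Hexa by 2.27 ± 0.09 in sgPcyt2 cells and 2.22 ± 0.10 with the cDNA and Arsa by 1.92 ± 0.09 in sgPcyt2 cells and 1.45 ± 0.10 with the cDNA.

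Lipa had 138 and 126 CPM off and 32.8 and 38.1 on doxycycline in sgPcyt2 cells, and 129 and 135 off and 47.1 and 48.2 on it with the Pcyt2 cDNA. Grn had 204 and 202 CPM off and 74.3 and 72.5 on doxycycline in sgPcyt2 cells, and 179.6 and 178 off and 70.0 and 79.7 on it with the Pcyt2 cDNA. Psap had 778 and 792 CPM off and 324 and 319 on doxycycline in sgPcyt2 cells, and 950.5 and 954 off and 307 and 299 on it with the Pcyt2 cDNA. Each rose in both, Lipa by 1.90 ± 0.06 in sgPcyt2 cells and 1.47 ± 0.06 with the cDNA, Grn by 1.47 ± 0.05 in sgPcyt2 cells and 1.25 ± 0.05 with the cDNA and Psap by 1.29 ± 0.04 in sgPcyt2 cells and 1.65 ± 0.04 with the cDNA. At the membrane, Igf2r had 139 and 123 CPM off and 51.0 and 48.0 on doxycycline in sgPcyt2 cells, and 91.7 and 98.3 off and 44.9 and 42.9 on it with the Pcyt2 cDNA. Scarb2 had 197 and 197 CPM off and 75.7 and 75.3 on doxycycline in sgPcyt2 cells, and 172 and 177 off and 105 and 96.9 on it with the Pcyt2 cDNA. Mcoln1 had 60.9 and 66.2 CPM off and 30.2 and 28.5 on doxycycline in sgPcyt2 cells, and 57.9 and 57.0 off and 30.9 and 28.7 on it with the Pcyt2 cDNA. Igf2r rose by 1.41 ± 0.06 in sgPcyt2 cells and 1.12 ± 0.06 with the cDNA, Scarb2 by 1.38 ± 0.05 in sgPcyt2 cells and 0.79 ± 0.05 with the cDNA, and Mcoln1 by 1.11 ± 0.07 in sgPcyt2 cells and 0.95 ± 0.07 with the cDNA. Igf2r and Scarb2 had not passed in KPsh cells after 10 days, in a separate table without a test across sets. Lamp2 had 214 and 213 CPM off and 104 and 108 on doxycycline in sgPcyt2 cells, and 205 and 206 off and 93.1 and 96.0 on it with the Pcyt2 cDNA, a rise of 1.01 ± 0.04 in sgPcyt2 cells and 1.12 ± 0.04 with the cDNA. Of the pump, Atp6v1b2 had 324 and 313 CPM off and 115 and 118 on doxycycline in sgPcyt2 cells, and 254 and 253 off and 118 and 119 on it with the Pcyt2 cDNA. Atp6v0a1 had 371 and 376 CPM off and 168 and 169.6 on doxycycline in sgPcyt2 cells, and 429.7 and 438 off and 159 and 158 on it with the Pcyt2 cDNA. Atp6v0d1 rose by 1.25 ± 0.06 in sgPcyt2 cells and 1.31 ± 0.06 with the cDNA, Atp6v1b2 by 1.45 ± 0.04 in sgPcyt2 cells and 1.10 ± 0.04 with the cDNA and Atp6v0a1 by 1.14 ± 0.04 in sgPcyt2 cells and 1.45 ± 0.04 with the cDNA. Atp6v0d1 had 104 and 109 CPM off and 44.2 and 45.4 on doxycycline in sgPcyt2 cells, and 117 and 118 off and 45.6 and 49.2 on it with the Pcyt2 cDNA, and Atp6v1a had 243 and 239 CPM off and 113 and 107 on doxycycline in sgPcyt2 cells, and 271 and 286 off and 115 and 113 on it with the Pcyt2 cDNA. The libraries off and on doxycycline did not overlap in these genes, which follows from naming them for the size of their change.

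The size of the withdrawal effect differed between Pcyt2 states for 21 of 46 members. The interaction (effect in sgPcyt2 cells minus effect with the cDNA) was positive for 14 and negative for 7, beside 12.8% and 12.4% of all genes. Off doxycycline Trp53 RNA was 41.7 to 42.1 CPM in sgPcyt2 cells and 86.8 to 97.2 CPM with the cDNA, and the part of that difference in these values was not tested. Ctsl stood furthest apart. It had 436 and 449 CPM off and 305 and 307 on doxycycline in sgPcyt2 cells, and 655 and 669 off and 186 and 189.5 on it with the Pcyt2 cDNA, so that it rose by 0.53 ± 0.04 in sgPcyt2 cells and 1.82 ± 0.04 with the cDNA, a difference of −1.28 ± 0.06 (adjusted p = 4.48e-23). On doxycycline it was higher in sgPcyt2 cells than with the cDNA (0.70 ± 0.04), and off doxycycline it was lower (−0.58 ± 0.04). Galns had 88.9 and 80.9 CPM off and 25.1 and 24.2 on doxycycline in sgPcyt2 cells, and 52.9 and 53.8 off and 29.6 and 33.1 on it with the Pcyt2 cDNA, and its effect was larger in sgPcyt2 cells by 1.02 ± 0.10 (adjusted p = 3.11e-11). Idua had 13.2 and 11.3 CPM off and 3.92 and 3.13 on doxycycline in sgPcyt2 cells, and 8.57 and 6.66 off and 5.59 and 2.95 on it with the Pcyt2 cDNA, a difference of 0.92 ± 0.29 (adjusted p = 0.0166). The call of Idua was lost without cDNA off-doxycycline replicate 2, cDNA on-doxycycline replicate 1 (difference 0.43), sgPcyt2 off-doxycycline replicate 1 or sgPcyt2 on-doxycycline replicate 2, and the last 3 each left 9 positive interactions.

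Scarb2 (0.59 ± 0.07), Ctsc (0.55 ± 0.08), Gaa (0.50 ± 0.08), Lipa (0.43 ± 0.09), Atp6v1b2 (0.35 ± 0.06), Igf2r (0.29 ± 0.09) and Cd63 (0.25 ± 0.06) had positive interactions, which for Ctsc means a smaller fall in sgPcyt2 cells. Npc2 (−0.40 ± 0.06), Psap (−0.36 ± 0.05), Ctsd (−0.31 ± 0.06) and Atp6v0a1 (−0.31 ± 0.06) had negative ones, with a larger rise when the cDNA was present. Npc2 had 217 and 220.4 CPM off and 131 and 119.9 on doxycycline in sgPcyt2 cells, and 257 and 261 off and 114 and 112 on it with the Pcyt2 cDNA. Cd63 had 459 and 477 CPM off and 268 and 268 on doxycycline in sgPcyt2 cells, and 424 and 435 off and 286 and 299 on it with the Pcyt2 cDNA. In 6 of 7 glycosidases and sulfatases called the interaction was positive, the exception being Gusb (−0.32 ± 0.09). The positive calls of Arsa, Arsb, Idua and Manba were lost with DESeq2 and in several fits with a library left out. Those of Galns, Gaa and Gusb were kept under all alternatives. The pump had 1 call in each direction.

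Pcyt2 states were also compared at the same doxycycline condition. On doxycycline 7 members were higher and 4 lower in sgPcyt2 cells than with the cDNA, beside 8.40% and 10.0% of all genes called higher and lower, and no pump gene was among them. Apart from Ctsl, those higher were Ctsc (0.69 ± 0.05), Hexa (0.44 ± 0.13), Lgmn (0.27 ± 0.09), Npc1 (0.27 ± 0.07), Lamp2 (0.17 ± 0.05) and Npc2 (0.15 ± 0.05). Those lower were Lipa (−0.43 ± 0.07), Scarb2 (−0.41 ± 0.05), Galns (−0.35 ± 0.08) and Cd63 (−0.13 ± 0.04). With DESeq2 the calls of Hexa, Lgmn, Npc1, Npc2 and Cd63 were lost. The calls of Lamp2 and Galns were lost in a fit with a library left out. Those of Ctsl, Ctsc, Lipa and Scarb2 were kept under all alternatives. Npc1 had 48.5 and 44.9 CPM off and 37.5 and 38.5 on doxycycline in sgPcyt2 cells, and 46.0 and 43.9 off and 29.8 and 32.9 on it with the Pcyt2 cDNA. Without either cDNA library or sgPcyt2 replicate 2 on doxycycline, 4 members were called higher. Off doxycycline 17 were higher and 10 lower, beside 16.3% and 16.8% of all genes. They included Ctsc (1.24 ± 0.07), Idua (0.69 ± 0.17), Galns (0.67 ± 0.06), Gaa (0.63 ± 0.05), Igf2r (0.47 ± 0.05) and Atp6v1b2 (0.33 ± 0.04) above, and Ctsl (−0.58 ± 0.04), Psap (−0.28 ± 0.04), Npc2 (−0.24 ± 0.04), Atp6v0a1 (−0.22 ± 0.04) and Atp6v1a (−0.21 ± 0.04) below. Lgmn (0.31 ± 0.06), Cln3 (0.29 ± 0.09), Grn (0.18 ± 0.04) and Scarb2 (0.18 ± 0.04) were also higher. With DESeq2 the off-doxycycline calls of Idua (adjusted p = 0.0549) and Cln3 (0.129) were lost. Cln3 had 27.7 and 26.9 CPM off and 15.3 and 15.8 on doxycycline in sgPcyt2 cells, and 22.0 and 22.6 off and 14.3 and 13.3 on it with the Pcyt2 cDNA.

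**Figure D5:**
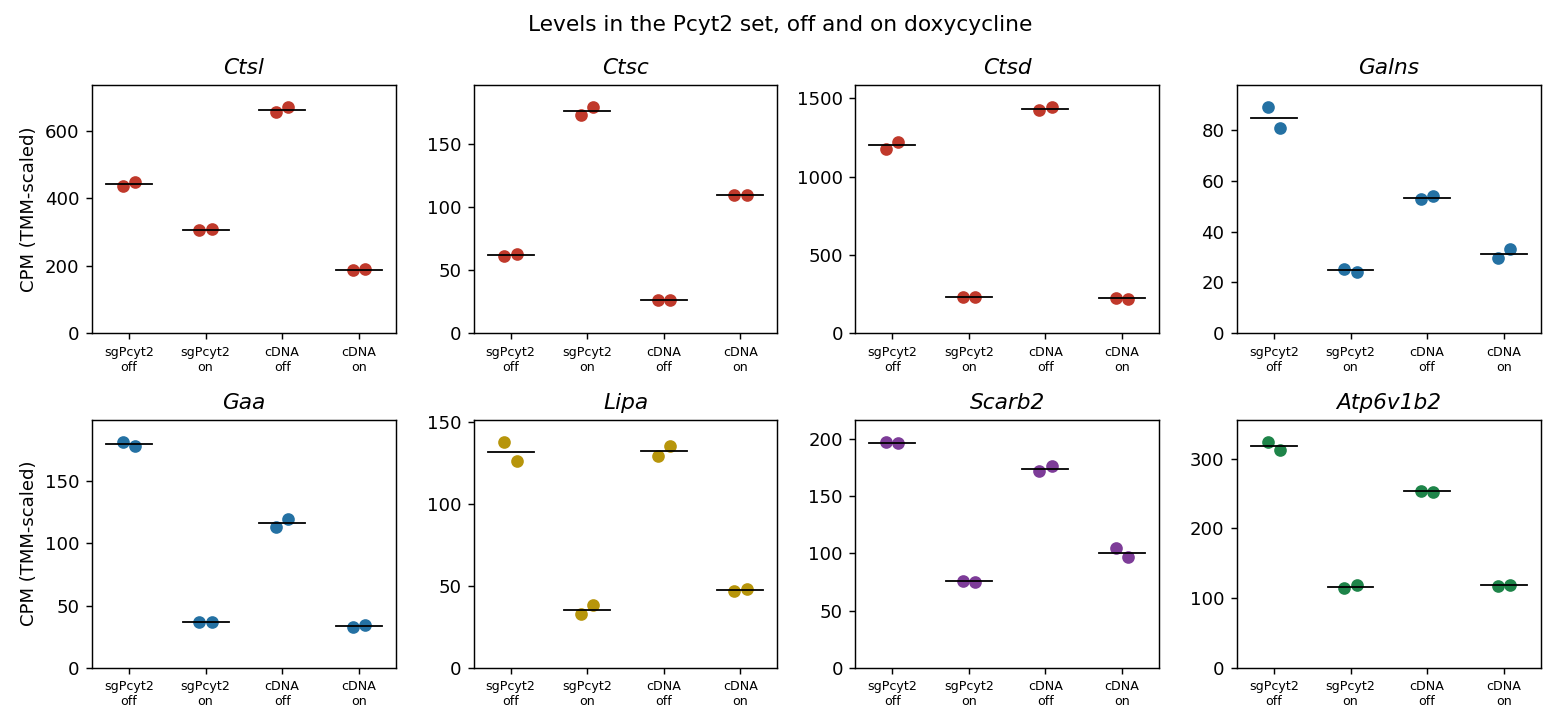
Scaled CPM of 8 members in each of the 8 libraries of the Pcyt2 set (points) with group means (lines), off and on doxycycline, in sgPcyt2 cells and with the Pcyt2 cDNA, each axis from 0. Ctsl is lower off and higher on doxycycline in sgPcyt2 cells than with the cDNA, Ctsc falls off doxycycline in both, and Galns and Gaa are highest in sgPcyt2 cells off doxycycline.

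The rest of the pathway was read from lists that hold no member, and the genes named from them were chosen after their values were seen. Of the lysosomal genes outside the members that could be tested, 21 of 28 were higher and 4 lower in KPsh cells off doxycycline, 23 of 29 higher and 1 lower with p53WT, 16 and 3 with TAD1m, 23 and 1 with TAD2m, and 2 higher with TAD12m, all against vector, beside the shares of all genes given above for each comparison. In the Pcyt2 set 26 of 28 were higher and 1 lower in sgPcyt2 cells and 24 and 2 with the cDNA. The lysosomal glycoprotein gene Cd68 changed by 1.80 ± 0.21 and 2.11 ± 0.17 in KPsh cells and with p53WT, and the nuclease Pld3 by 1.62 ± 0.10 and 1.20 ± 0.12. Sort1, a sorting receptor, changed by 0.53 ± 0.18 with p53WT and −0.83 ± 0.20 with TAD1m, and by −1.36 ± 0.20 between these forms.

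Of the other V-ATPase genes, 10 of 11 tested were higher in KPsh cells off doxycycline, and all 10 tested were higher with p53WT and with TAD2m. With TAD1m 6 of 10 were higher. Tcirg1, another isoform of the membrane subunit a, changed by 1.64 ± 0.11 with TAD1m and 1.12 ± 0.12 with p53WT, and by 0.52 ± 0.11 between them, in the opposite direction to Atp6v0a1 (−1.36 ± 0.06). Atp6v0a2, a further isoform, changed by −0.53 ± 0.07. Of the MiT/TFE factors, Tfe3 changed by 0.19 ± 0.07 and 0.27 ± 0.07 in KPsh cells and with p53WT, and Tfeb had log2 values of −0.17 ± 0.14 and −0.04 ± 0.23, neither called. In sgPcyt2 cells off doxycycline Tfeb changed by 0.51 ± 0.13, against an uncalled −0.27 ± 0.13 with the cDNA, an interaction of 0.78 ± 0.18 (adjusted p = 0.00103). Rragd, a Rag GTPase of lysosomal nutrient signalling, changed by 4.36 ± 0.68 and 3.44 ± 0.66 in sgPcyt2 and cDNA cells and by 2.88 ± 0.61 with p53WT. Against vector, 11 of the 24 tested genes of this signalling list were higher and 3 lower with p53WT. With TAD1m 11 were higher and none lower, with TAD2m 9 and 1, and with TAD12m none and 1. In the Pcyt2 set 14 of 22 were higher and 2 lower off doxycycline in sgPcyt2 cells, and 11 and 4 with the cDNA. The shares of all genes are those given above for each comparison. In KPsh cells off doxycycline 10 of 22 were higher and 7 lower, beside 33.1% and 31.7% of all genes. The lower ones included the MiT/TFE factor Tfec (−4.75 ± 0.54, adjusted p = 9.93e-08), at a mean of 0.989 CPM, the mTORC1 inhibitor Sesn1 (−1.09 ± 0.14) and the Rag GTPase Rragb (−1.31 ± 0.18). Sesn2 and Ddit4, inhibitors of mTORC1 signalling, changed by 1.76 ± 0.08 and 2.00 ± 0.10 and by 2.83 ± 0.11 and 1.32 ± 0.10 in KPsh cells and with p53WT.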

How the data were processed

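Poly(A) RNA was extracted with TRIzol and made into stranded TruSeq libraries, per the labels' protocols. Per the submitters' processing notes, the tools included STAR 2.6.1c and HOMER and the build was mm10. Per the file headers, HOMER made the deposited expected counts on exons from both strands, kept 1 transcript per gene and left them unadjusted. Values came in steps of 0.5 where reads were divided. They were rounded to whole numbers, which changed no total by more than 0.0533%. The members and lists were chosen with earlier results of these data known.

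Each of the 3 tables was fitted separately with the quasi-likelihood test of edgeR 4.0.16 (R 4.3.3, limma 3.58.1), with all groups of a set in 1 fit, TMM normalization (factors 0.979 to 1.021) and the filterByExpr filter on low counts. P-values were adjusted over all genes tested by Benjamini-Hochberg and called at 0.05, and SE are those of the fitted log2 change. CPM and RPKM use TMM-scaled library sizes. The biological coefficient of variation was 0.0582 in KPsh, 0.0548 in KPnull and 0.0333 in the Pcyt2 set. The alternatives were DESeq2 1.42.0, RLE normalization, no filter, only the 2 groups compared, a replicate block and each library left out in turn. Values in every library are given for up to 3 called members with the largest change per class and comparison, at a mean of at least 5 CPM, and for members against their class. Other members are given with fewer values. Off-doxycycline KPsh columns and Pcyt2 cDNA columns were matched to samples by elimination, since the other names in their tables match other labels.

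Counting ignored strand, so overlapping genes cannot be told apart. Exons of Pltp cover 21.7% of Ctsa, those of Card14 21.9% of Sgsh and those of Fdft1 16.3% of Ctsb. Intervals on counts cover counting error only.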

Additional observations from a re-analysis of the deposited data

Results flagged for a closer look

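The effect of doxycycline withdrawal differed between sgPcyt2 cells and cells with the Pcyt2 cDNA for 21 members by the interaction term itself (edgeR, adjusted p under 0.05). The values are log2 differences, the effect in sgPcyt2 cells minus that with the cDNA. Positive values, in order of size, were those of Galns (1.02), Idua (0.921), Scarb2 (0.591), Ctsc (0.552), Gaa (0.5), Arsa (0.467), Lipa (0.429), Atp6v1b2 (0.354), Ctsa (0.303), Igf2r (0.289), Arsb (0.279), Manba (0.278), Cd63 (0.248) and Grn (0.214). Negative values were those of Ctsl (−1.283), Npc2 (−0.398), Psap (−0.365), Gusb (−0.322), Ctsd (−0.311), Atp6v0a1 (−0.309) and Ctsz (−0.214). Off doxycycline Trp53 RNA was 41.7 and 42.1 CPM in sgPcyt2 cells and 86.8 and 97.2 CPM with the cDNA, and its part in these differences was not tested. The calls of Arsa, Arsb, Ctsz, Grn, Idua, Igf2r and Manba were lost when 1 of several libraries was left out and with DESeq2, and the other 14 were kept under all alternatives.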

How the results depend on the processing

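Of 3525 checks of 380 member calls under the alternatives, 3338 kept the call, 187 lost it and none reversed direction. Counts of members that moved by more than 1.5 times were few. The interaction had 14 positive calls, but 8 with DESeq2 and 9 to 13 with 1 library left out. Members higher in sgPcyt2 than in cDNA cells on doxycycline numbered 7, but 3 with DESeq2 and 4 to 5 with 1 library left out. TAD12m raised 3 members over vector, but 5 without the filter on low counts, 1 with only the 2 groups compared and 1 to 4 with 1 library left out. With TAD1m, 8 members were above p53WT (5 to 7 with 1 library left out) and 5 below vector (3 with DESeq2, 2 to 3 with 1 library left out). TAD2m lowered 2 members against vector, or 1 to 3 with 1 library left out. The cause of these shifts was not tested.

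Over all genes, TAD2m against p53WT had 30 genes higher and 13 lower, against 64 and 43 without the filter and 56 and 43 with only those groups compared. TAD12m against vector had 301 higher and 279 lower, against 88 and 72 with only those groups. With DESeq2 the interaction had 1003 and 1233 calls, against 1909 and 1850, and sgPcyt2 against cDNA cells 737 and 696 on doxycycline, against 1253 and 1493, and 1325 and 1537 off it, against 2431 and 2513. The fitted change of Ctsf in KPnull cells with p53WT was 4.62 and became 5.40 without vector replicate 1, and in KPsh cells it was 4.17 and became 3.55 without on-doxycycline replicate 1. Left with 1 library, a group was assumed to vary like the others.

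The labels tie no replicate number to a shared culture or batch. Same-numbered libraries had correlations of deviations of −0.126, −0.116 and −0.1 for KPsh, from −0.204 to 0.354 across KPnull groups and from −0.07 to 0.011 in Pcyt2-edited cells, so not every pair was over 0.1 and the numbers were not taken as pairs. With the replicate block, 41 members were higher in KPsh cells off doxycycline. Against vector, 26 were higher with TAD1m, 37 with TAD2m, 2 with TAD12m and 39 with p53WT. Off doxycycline 44 and 42 were higher in sgPcyt2 and cDNA cells, and 13 interactions were positive and 7 negative. Over all genes, this setting called 4432 of 13990 higher in KPsh cells. Of 15075 genes it called 2842 higher with TAD1m, 3732 with TAD2m, 275 with TAD12m and 3802 with p53WT. Of 14916 genes it called 5788 and 5505 higher in sgPcyt2 and cDNA cells, with 1815 positive and 1750 negative interactions.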
